A study of Homo sapiens with 63 samples.

Results

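The genes described here encode the enzymes that build nucleotides: 36 genes, chosen by name from the table of COLO320DM cells grown in vitro, which lists 13962 genes. All 36 were present once and all passed the filter on low values. By role they comprised 13 genes of purine synthesis, 7 pyrimidine genes, 11 of deoxynucleotide supply, 3 of the folate cycle and 2 of purine salvage. UCK2, counted with the pyrimidine genes, is a salvage kinase. COLO320DM is an established human colorectal adenocarcinoma line that carries extra copies of MYC on extrachromosomal DNA. Its cells had been given Helicon 4 at 1, 3 or 10 µM, Helicon 4-neg at 1, 3 or 10 µM, or DMSO, the solvent, for 6, 24 or 48 h. Helicon 4 belongs to the helicons, helical peptides that the series title directs at the interface of β-catenin and TCF, the proteins that switch on the target genes of Wnt signals, and Helicon 4-neg is its companion compound in the labels. Each of the 21 groups held 3 libraries from replicates labelled biological, 63 in all and all from this 1 line, and poly(A) RNA was sequenced with a stranded kit.

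Cells make purine rings step by step on a ribose phosphate, and pyrimidine rings as a free base that is joined to the ribose phosphate afterwards. Folate carries the 1-carbon units that both purines and thymidylate need, and ribonucleotide reductase turns ribonucleotides into the deoxynucleotides used in DNA replication. Salvage enzymes recycle free bases and nucleosides, and many genes of these pathways are known to be more active in cells that are dividing, and to respond to MYC or E2F.

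The libraries held 16628595 to 32860333 reads in listed genes (median 22123187), so 1 read was worth 0.0301 to 0.0622 of the deposited unit, a scaled CPM, in which all levels below are given. Among markers of colorectal epithelium, CDX2 ranged from 2234 to 3977 and KRT8 from 142 to 339.9 over the 63 libraries, EPCAM (1.04 to 4.16) and CDH1 (0 to 2.51) were near the floor, and VIL1 was not listed. The neuroendocrine markers CHGA (0.985 to 4.42), SYP (5.48 to 9.93) and ENO2 (9.71 to 28.0) were low to moderate, and the fibroblast marker COL1A1 reached 27.7. The leukocyte gene PTPRC ranged from 7.28 to 14.6, while CD3E, CD14 and CD79A were not listed. Libraries that lay farthest from the mean of their group were Helicon 4 10 µM 24 h replicate 1 (SD of its log2 deviations 0.147, against a median of 0.0698 over all libraries), Helicon 4-neg 1 µM 48 h replicate 1 (0.13) and Helicon 4 3 µM 24 h replicate 1 (0.128). DMSO 6 h replicate 2 had 0.119, and its deviations correlated with gene length (r = 0.432 across 8913 genes, which are not independent replicates), as did those of other libraries, over which r ranged from -0.406 to 0.457. In bulk RNA, fewer cells of a kind and less RNA per cell cannot be told apart.

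Most of the 36 genes were lower with Helicon 4 at 3 and 10 µM than with DMSO at 24 and 48 h, and few were lower at 6 h. At 10 µM, 27 genes fell and 2 rose at 24 h, where 27.6% of all genes tested fell and 25.1% rose (limma, adjusted p below 0.05 over all genes tested). A gene is said below to have risen or fallen where it passed this test, and the value that follows is its log2 fold change on the scale of the level plus 1. At 48 h, 28 fell and 3 rose, against 28.7% and 31.1% of all genes. The median log2 fold change of the 36 was -0.42 at 24 h and -0.42 at 48 h, while that of all genes tested was -0.01 and 0.02. At 24 h the count at 3 µM was near that at 10 µM, and the count at 1 µM was smaller. At 3 µM, 26 fell and 3 rose (all genes 24.4% and 20.8%), and at 1 µM 10 fell and 2 rose (all genes 10.3% and 8.59%). By 48 h the counts at 3 µM were 26 lower and 3 higher (all genes 28.5% and 30.8%), and 1 µM also lowered 23 genes and raised 3 (all genes 21.2% and 19.7%).

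**Figure D1:**
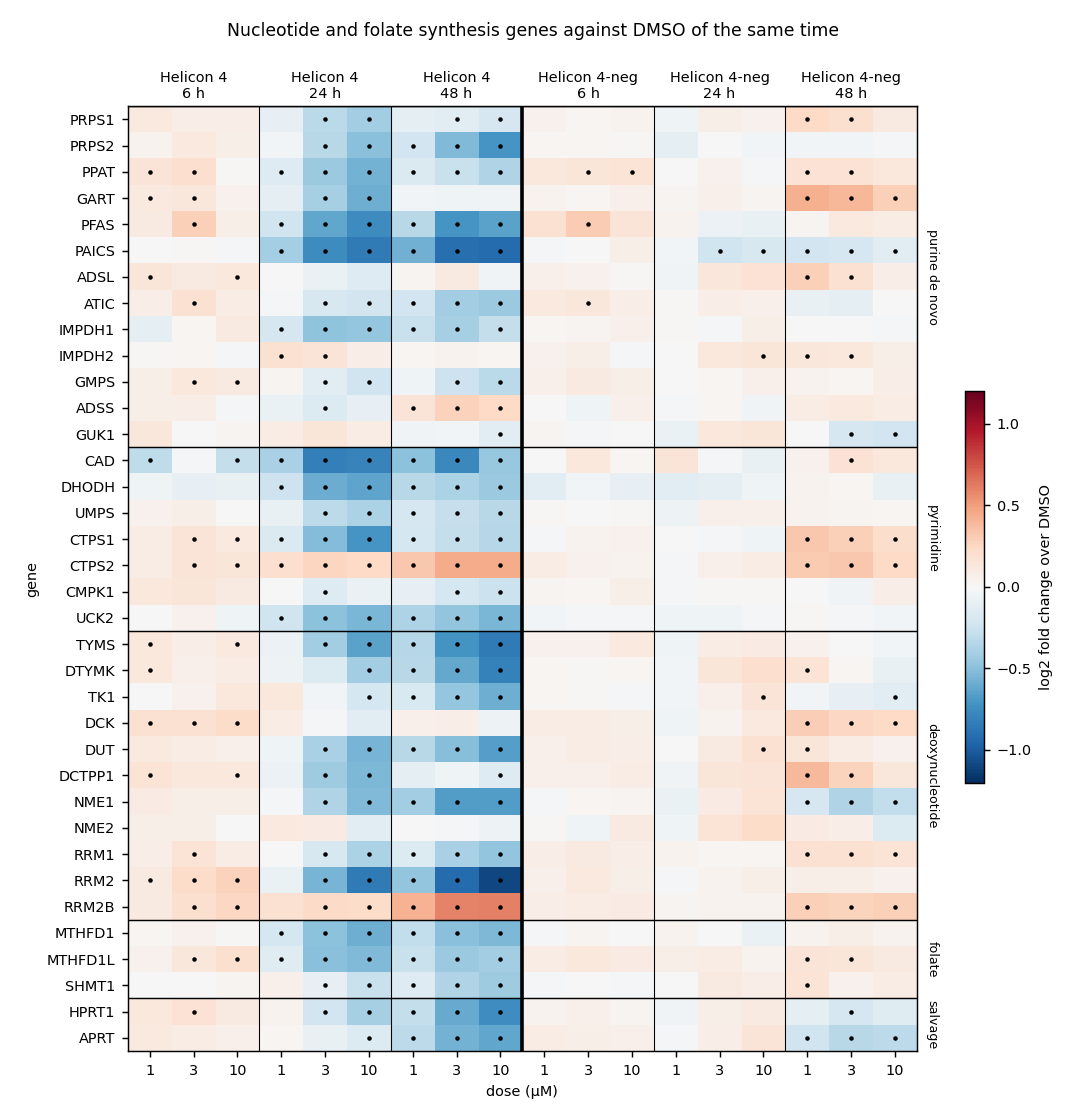
Log2 fold change over DMSO of the same time for each of the 36 genes (rows, by role), with dose in µM along the bottom. Helicon 4 is left of the thick line and Helicon 4-neg right of it, and a dot marks a limma adjusted p below 0.05. The Helicon 4 columns at 24 and 48 h are mostly blue, with 27 and 28 genes lower at 10 µM (all genes 27.6% and 28.7%), while CTPS2 and RRM2B are red at 10 µM.

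Helicon 4 was also set against Helicon 4-neg at the same dose and time, in 9 matched pairs. At 10 µM, 30 genes were lower and 2 higher with Helicon 4 at 24 h (all genes 27.6% and 25.1%). At 48 h 30 were lower and 3 higher (all genes 27% and 26.7%). The 3 µM pair gave 29 lower and 2 higher at 24 h (all genes 23.3% and 19.6%), and 29 lower and 3 higher at 48 h (all genes 26.6% and 25.9%). The 1 µM pair gave 10 lower and 3 higher at 24 h (all genes 14.1% and 11.4%), and 29 lower and 0 higher at 48 h (all genes 20.1% and 15.8%). These comparisons share the Helicon 4 libraries with the comparisons against DMSO, so both are given side by side below and neither stands as independent evidence of the other.

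**Figure D2:**
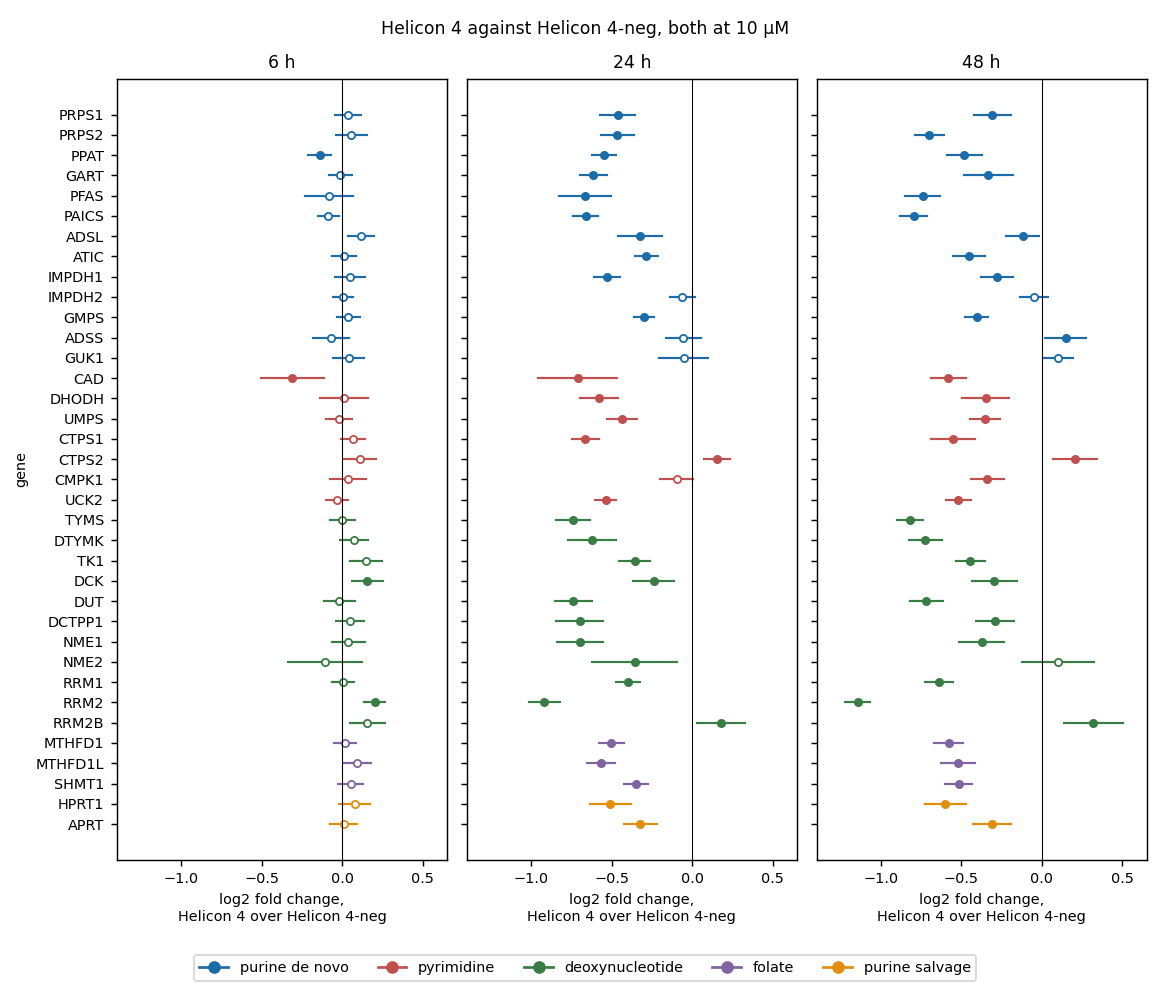
Log2 fold change of Helicon 4 over Helicon 4-neg, both at 10 µM, for each gene (rows) at 6, 24 and 48 h (panels), with 95% intervals. Filled points have a limma adjusted p below 0.05. At 24 and 48 h 30 genes lie left of zero with filled points (all genes 27.6% and 27% lower), RRM2 farthest at -0.92 and -1.14, and CTPS2 and RRM2B lie right of it.

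Most genes of purine synthesis were lower with Helicon 4 at 24 and 48 h. Of its 13 genes, 9 fell and 0 rose at 24 h with Helicon 4 10 µM against DMSO (median log2 fold change -0.41, all genes 27.6% and 25.1%). At 48 h 9 fell and 1 rose (median -0.29, all genes 28.7% and 31.1%). PAICS, a bifunctional enzyme of the middle of the pathway (ENSG00000128050, chromosome 4, 56435741 to 56464579), changed most. At 24 h its level was 385, 355 and 354 with Helicon 4 10 µM, 589, 564 and 578 with Helicon 4-neg 10 µM and 670.2, 668 and 637 with DMSO. At 48 h the libraries had 397, 397 and 405 with Helicon 4, 673, 712 and 698 with Helicon 4-neg and 748, 757 and 769 with DMSO. The 3 groups did not overlap at either time, with Helicon 4 lowest and DMSO highest. Against DMSO the log2 fold change was -0.85 (limma adjusted p = 1.2e-13, SE 0.037) at 24 h and -0.92 (limma adjusted p = 6e-15, SE 0.041) at 48 h, and against Helicon 4-neg it was -0.66 (limma adjusted p = 6.5e-12, SE 0.037) and -0.80 (limma adjusted p = 9.1e-14, SE 0.041). PAICS was also lower with Helicon 4-neg 10 µM than with DMSO, with -0.19 at 24 h and -0.13 at 48 h (limma adjusted p = 0.0042 and 0.033). That call at 48 h was lost without Helicon 4-neg 10 µM replicate 1 (-0.10), Helicon 4-neg replicate 3 (-0.13), DMSO replicate 2 (-0.13) or DMSO replicate 3 (-0.12).

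PPAT, which catalyses the committed step of purine synthesis (ENSG00000128059, chromosome 4, 56393362 to 56435615), is the neighbour of PAICS, and the 2 genes are transcribed away from each other. Its level at 24 h was 137, 146 and 140.5 with Helicon 4 10 µM, 206, 212 and 202 with Helicon 4-neg 10 µM and 212, 209 and 207 with DMSO. The Helicon 4 libraries were the lowest, and the other 2 groups overlapped. PPAT fell with -0.57 at 24 h and -0.36 at 48 h against DMSO (limma adjusted p = 6.4e-11 and 3.1e-06). The stretch upstream of PPAT on its own strand, which reads from inside PAICS to the start of PPAT, is shown because it spans the space between the 2 genes and the start of PAICS, and holds, in the part inside PAICS, the palindrome CACGTG, the E-box to which MYC and related factors can bind. In this sequence (GRCh38, minus strand, chr4:56435616-56435865, from RefSeq) the capitals mark the E-box:
PPAT: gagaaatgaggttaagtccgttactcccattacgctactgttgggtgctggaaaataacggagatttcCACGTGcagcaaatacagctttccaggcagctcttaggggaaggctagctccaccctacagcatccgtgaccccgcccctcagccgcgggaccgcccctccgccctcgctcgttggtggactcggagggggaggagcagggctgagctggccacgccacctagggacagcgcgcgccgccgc

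PFAS, which catalyses the amidation step before PAICS acts (ENSG00000178921, chromosome 17, 8247618 to 8270491), had 65.8, 63.2 and 61.1 at 48 h with Helicon 4 10 µM, 108, 111 and 100.4 with Helicon 4-neg 10 µM and 103, 99.1 and 97.6 with DMSO. Every Helicon 4 library lay below the 6 others, which overlapped. The log2 fold change was -0.75 (limma adjusted p = 5.9e-08, SE 0.077) at 24 h and -0.65 (limma adjusted p = 3e-10, SE 0.052) at 48 h against DMSO, and -0.66 and -0.74 against Helicon 4-neg. PRPS2, 1 of the synthetases that make the activated ribose phosphate (ENSG00000101911, chromosome X, 12791355 to 12824222), had 62.0, 65.1 and 63.2 with Helicon 4, 101, 106 and 104 with Helicon 4-neg and 106, 101 and 106 with DMSO at 48 h. Only the Helicon 4 group stood apart. PRPS2 fell with -0.50 and -0.71 at 24 and 48 h against DMSO, and with -0.46 and -0.70 against Helicon 4-neg (limma adjusted p = 3.9e-08, 2.2e-12, 1.1e-07 and 3e-12). The other synthetase, PRPS1, fell with -0.41 at 24 h and -0.20 at 48 h against DMSO (limma adjusted p = 1.2e-06 and 0.0036).

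GART, a trifunctional enzyme of the early pathway, differed between the 2 later times. Its level at 24 h was 119 ± 5.5 with Helicon 4 10 µM, 182 ± 2.2 with Helicon 4-neg 10 µM and 179 ± 5.5 with DMSO (SD, n = 3 each), and the log2 fold change against DMSO was -0.58 (limma adjusted p = 1.3e-10, SE 0.04). At 48 h the levels were 124 ± 2.5 with Helicon 4, 156 ± 7.9 with Helicon 4-neg and 128 ± 5 with DMSO, and the log2 fold change against DMSO was -0.04 (95% interval -0.20 to 0.11, limma adjusted p = 0.64). The difference between the times was 0.54 (limma adjusted p = 3.7e-07). Against Helicon 4-neg GART still fell at 48 h, with -0.33 (limma adjusted p = 0.00059), and Helicon 4-neg itself had 0.29 against DMSO (limma adjusted p = 0.01, a call lost without DMSO replicate 3, at 0.26). The reads of GART may include some of SON, whose exons overlap it on the opposite strand, since the use of strand in counting is not given in the sources used here.

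The 2 forms of IMP dehydrogenase, which opens the route to GMP, did not give the same calls. IMPDH1 fell with -0.46 at 24 h and -0.29 at 48 h against DMSO (limma adjusted p = 4e-09 and 2.1e-05), and with -0.53 and -0.28 against Helicon 4-neg. IMPDH2 had 293, 288 and 291 with Helicon 4 10 µM, 288, 304 and 309 with Helicon 4-neg and 289, 283 and 288 with DMSO at 48 h, and the groups overlapped. Its log2 fold change against DMSO was 0.08 at 24 h (95% interval 0.00 to 0.16) and 0.02 at 48 h (-0.07 to 0.11), neither of which passed the test, while at 24 h it rose with Helicon 4 at 1 µM (0.19) and 3 µM (0.16; limma adjusted p = 0.0014 and 0.0015). The difference between IMPDH1 and IMPDH2 was not tested. Per kilobase of deposited gene length, IMPDH2 had 108 and IMPDH1 26.1 in DMSO at 24 h. GMPS, which makes GMP from XMP, fell at both times (-0.24 and -0.32, limma adjusted p = 8.4e-07 and 2.7e-08), as did ATIC, which closes the purine ring (-0.22 and -0.45, limma adjusted p = 2.6e-05 and 4.4e-08). ADSL, which acts on both the pathway to IMP and the branch to AMP, had -0.15 and -0.04 and did not pass against DMSO at 24 or 48 h. It rose with 0.13 at 6 h, a call lost without Helicon 4 replicate 1 (0.12) or 2 (0.11) or DMSO replicate 2 (0.085). Against Helicon 4-neg it fell with -0.32 at 24 h and -0.12 at 48 h (limma adjusted p = 0.00035 and 0.043), and the call at 48 h was lost without Helicon 4 replicate 1 (-0.089) or 2 (-0.13) or any Helicon 4-neg library (-0.10 to -0.13). GUK1, the kinase of GMP, had 0.09 at 24 h without passing and fell with -0.13 at 48 h, a call lost without Helicon 4 10 µM replicate 1 (-0.12) or DMSO replicate 2 (-0.10). Its difference from Helicon 4-neg at 48 h was 0.10 and did not pass.

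ADSS, the synthetase of the branch to AMP (ENSG00000035687, chromosome 1, 244408494 to 244452134), went the other way at 48 h. Its level was 53.8, 53.2 and 55.1 with Helicon 4 10 µM, 47.3, 49.2 and 49.8 with Helicon 4-neg 10 µM and 48.8, 43.6 and 44.7 with DMSO, with the Helicon 4 libraries above all others. It rose with 0.24 (limma adjusted p = 0.0017, SE 0.061) against DMSO. Against Helicon 4-neg the difference was 0.15 (limma adjusted p = 0.046, SE 0.061), and leaving out any 1 of the 6 libraries ended that call, with values between 0.12 (without Helicon 4-neg replicate 1) and 0.16 (without Helicon 4-neg replicate 3). With the replicate number as a block it was 0.15 and the adjusted p was 0.0605. At 24 h ADSS had -0.10 against DMSO and did not pass.

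Of the 7 pyrimidine genes, 5 fell and 1 rose at 24 h with Helicon 4 10 µM against DMSO (median -0.55, all genes 27.6% and 25.1%). At 48 h 6 fell and 1 rose (median -0.34, all genes 28.7% and 31.1%). CAD carries the first 3 activities of the pathway on 1 protein (ENSG00000084774, chromosome 2, 27217390 to 27243943). At 24 h its level was 86.3, 57.8 and 63.7 with Helicon 4 10 µM, 112, 112 and 114 with Helicon 4-neg 10 µM and 120.3, 113 and 128 with DMSO. Replicate 1 of Helicon 4, which lay farthest from its group over all genes, was the highest of its group, and all 3 were below the other 6. CAD fell with -0.81 (limma adjusted p = 6.5e-06, SE 0.12) against DMSO and -0.71 (limma adjusted p = 2.9e-05, SE 0.12) against Helicon 4-neg. At 48 h the levels were 77.5, 71.6 and 72.0 with Helicon 4, 117, 108 and 107 with Helicon 4-neg and 105, 100.3 and 99.0 with DMSO, again without overlap of Helicon 4 with the others, and the changes were -0.45 (limma adjusted p = 1.3e-07, SE 0.053) against DMSO and -0.58 (limma adjusted p = 2.7e-09, SE 0.053) against Helicon 4-neg.

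DHODH and UMPS follow CAD on the way to UMP, DHODH as the mitochondrial step and UMPS as the last. DHODH had a level of 20.0 ± 0.92 with Helicon 4 10 µM, 30.4 ± 0.77 with Helicon 4-neg 10 µM and 31.6 ± 0.69 with DMSO at 24 h, and fell with -0.64 at 24 h and -0.44 at 48 h against DMSO (limma adjusted p = 9.8e-09 and 1.1e-05). UMPS fell with -0.38 and -0.33 (limma adjusted p = 3.7e-07 and 1.3e-06). UCK2, a kinase that salvages uridine and cytidine (ENSG00000143179, chromosome 1, 165827531 to 165911618), had 145, 144 and 145 with Helicon 4, 201, 214 and 209 with Helicon 4-neg and 205, 215 and 219 with DMSO at 48 h, and the Helicon 4 libraries lay below the rest. It fell with -0.55 and -0.55 against DMSO and with -0.54 and -0.52 against Helicon 4-neg (limma adjusted p = 1e-11, 1.1e-11, 1.4e-11 and 3.8e-11). Exons of UCK2 overlap those of TMCO1 on the opposite strand. CMPK1, the kinase of UMP and CMP, had -0.08 at 24 h without passing and fell with -0.26 at 48 h (limma adjusted p = 9.9e-05).

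CTP synthase, which turns UTP into CTP, has 2 genes that moved apart. CTPS1 (ENSG00000171793, chromosome 1, 40979335 to 41012565) had 72.8, 82.9 and 77.4 with Helicon 4 10 µM, 119, 126 and 125 with Helicon 4-neg 10 µM and 127, 129.7 and 126 with DMSO at 24 h. CTPS2 (ENSG00000047230, chromosome X, 16588003 to 16712936) had 87.0, 96.0 and 93.9 with Helicon 4, 79.7, 85.1 and 83.9 with Helicon 4-neg and 78.4, 76.9 and 78.6 with DMSO. The Helicon 4 libraries were lowest for CTPS1 and highest for CTPS2, without overlap with the others. CTPS1 fell with -0.71 (limma adjusted p = 1.1e-11, SE 0.041) and CTPS2 rose with 0.24 (limma adjusted p = 3.3e-05, SE 0.04) against DMSO, and against Helicon 4-neg the changes were -0.66 and 0.15 (limma adjusted p = 3.1e-11 and 0.0027). The difference between the 2 genes was not tested. At 48 h CTPS1 had 70.6, 71.8 and 68.3 with Helicon 4, 98.9, 108 and 104 with Helicon 4-neg and 91.9, 88.2 and 86.9 with DMSO. CTPS2 had 76.6, 73.5 and 75.1 with Helicon 4, 60.7, 68.7 and 65.6 with Helicon 4-neg and 57.8, 53.9 and 53.1 with DMSO. Helicon 4-neg lay above DMSO for both genes at this time, with 0.22 for CTPS1 and 0.24 for CTPS2 (limma adjusted p = 0.024 and 0.015), and each of these calls was lost without Helicon 4-neg replicate 2 (0.19 for CTPS1 and 0.20 for CTPS2), Helicon 4-neg replicate 3 (0.21 and 0.23), DMSO replicate 2 (0.21 and 0.23) or DMSO replicate 3 (0.20 and 0.22). The 48 h change of CTPS1 was -0.34 against DMSO and -0.55 against Helicon 4-neg (limma adjusted p = 0.0001 and 1.6e-07). That of CTPS2 was 0.45 against DMSO and 0.21 against Helicon 4-neg (limma adjusted p = 3.7e-06 and 0.011). The comparison of CTPS2 with Helicon 4-neg lost its call without Helicon 4-neg replicate 1 (0.16).

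**Figure D3:**
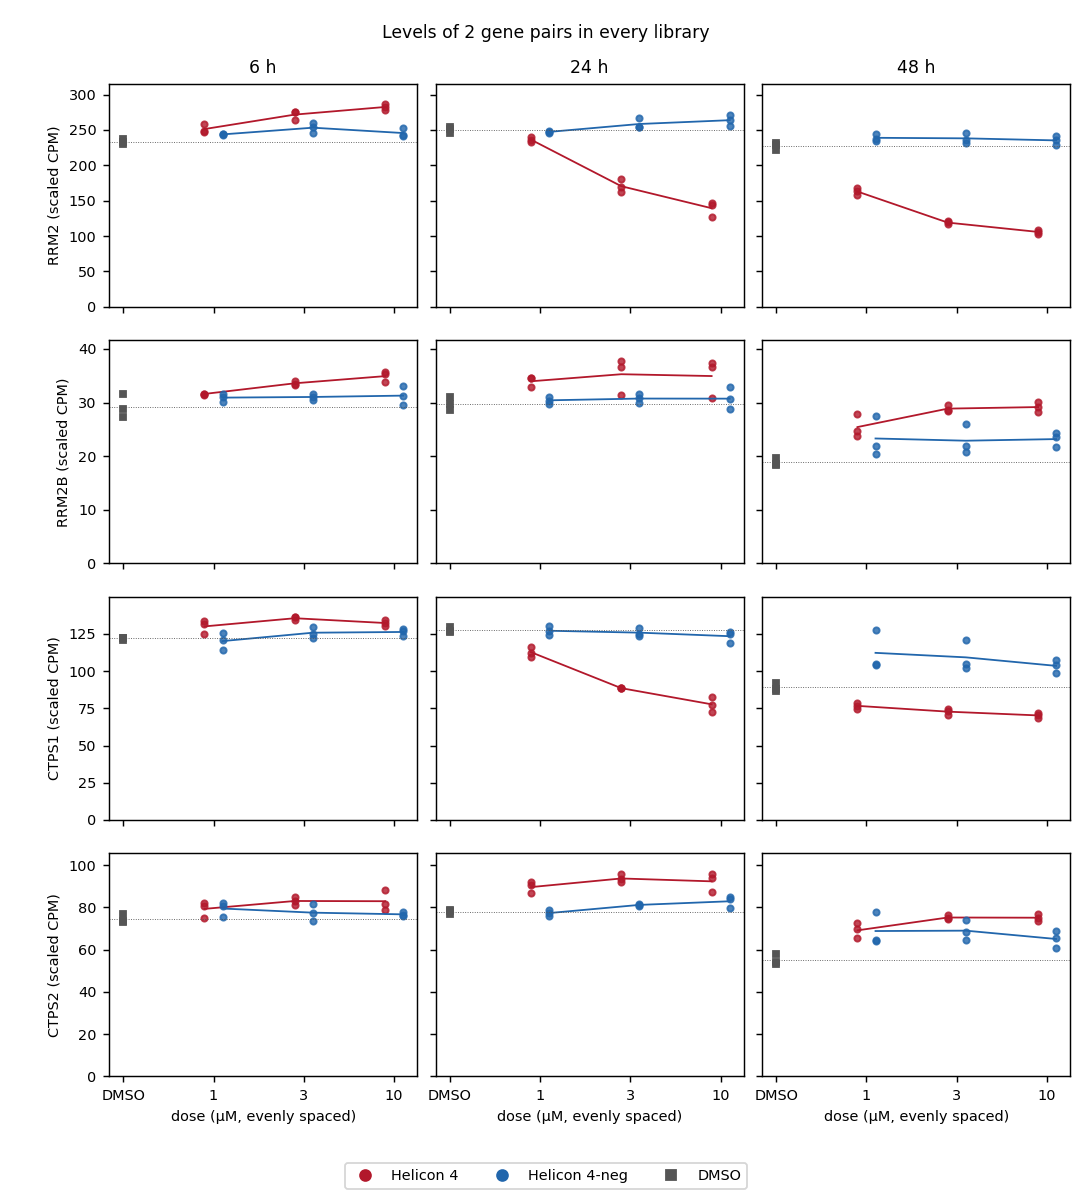
Level in scaled CPM of RRM2, RRM2B, CTPS1 and CTPS2 (rows) in every library at 6, 24 and 48 h (panels), by dose in µM. Points are libraries, lines join group means and the dotted line is the mean of DMSO. At 48 h the Helicon 4 10 µM libraries have 103 to 108 for RRM2, against 221 to 231 with DMSO, and 28.2 to 30.1 for RRM2B, against 18.3 to 19.6 with DMSO.

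At 48 h and 10 µM the lowest of the 36 log2 fold changes, in both comparisons, belonged to a gene of deoxynucleotide supply. Of its 11 genes, 8 fell and 1 rose at 24 h against DMSO (median -0.42, all genes 27.6% and 25.1%). At 48 h 8 fell and 1 rose (median -0.58, all genes 28.7% and 31.1%). RRM2 is the small subunit of ribonucleotide reductase that cells use in S phase (ENSG00000171848, chromosome 2, 10120698 to 10131419). At 24 h it had 127, 147 and 144 with Helicon 4 10 µM, 256, 265 and 270.4 with Helicon 4-neg 10 µM and 251, 254 and 246 with DMSO. At 48 h it had 103, 106 and 108 with Helicon 4, 229, 242 and 235 with Helicon 4-neg and 229, 231 and 221 with DMSO. The Helicon 4 libraries were far below the 6 others at both times, and Helicon 4-neg lay just above DMSO at 24 h and overlapped it at 48 h. The log2 fold change was -0.84 (limma adjusted p = 4.7e-12, SE 0.046) at 24 h and -1.09 (limma adjusted p = 5e-17, SE 0.037) at 48 h against DMSO, and -0.92 (limma adjusted p = 1.2e-12, SE 0.046) and -1.14 (limma adjusted p = 1.8e-17, SE 0.037) against Helicon 4-neg.

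RRM2B is the alternative small subunit, known as a p53 target that serves cells outside S phase (ENSG00000048392, chromosome 8, 102204502 to 102239118). It had 28.2, 29.1 and 30.1 with Helicon 4 10 µM, 21.7, 24.3 and 23.5 with Helicon 4-neg 10 µM and 19.6, 18.6 and 18.3 with DMSO at 48 h, and the 3 groups did not overlap. The log2 fold change was 0.61 (limma adjusted p = 3.6e-06, SE 0.089) against DMSO and 0.32 (limma adjusted p = 0.0042, SE 0.089) against Helicon 4-neg. Helicon 4-neg had 0.29 against DMSO (limma adjusted p = 0.028), and this call was lost without Helicon 4-neg replicate 2 (0.25), Helicon 4-neg replicate 3 (0.28), DMSO replicate 2 (0.28) or DMSO replicate 3 (0.27). At 24 h RRM2B had 30.9, 36.6 and 37.3 with Helicon 4, 28.7, 32.8 and 30.6 with Helicon 4-neg and 29.7, 31.0 and 28.5 with DMSO, and the groups overlapped through replicate 1 of Helicon 4. The changes there were 0.22 (limma adjusted p = 0.013, SE 0.071) against DMSO and 0.18 (limma adjusted p = 0.042, SE 0.071) against Helicon 4-neg. The call against DMSO was lost without Helicon 4 replicate 2 (0.18) or 3 (0.17) or DMSO replicate 3 (0.19), and the one against Helicon 4-neg without Helicon 4 replicate 2 (0.14) or 3 (0.13) or Helicon 4-neg replicate 1 (0.13) or 3 (0.18). The large subunit RRM1 fell with -0.38 and -0.48 against DMSO (limma adjusted p = 2.6e-08 and 1.3e-09). Per kilobase of deposited gene length, DMSO at 48 h had 59.1 for RRM1, 45.8 for RRM2 and 3.39 for RRM2B.

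Genes of thymidylate synthesis fell at both later times. TYMS, the thymidylate synthase that methylates dUMP with a folate carbon (ENSG00000176890, chromosome 18, 657604 to 673578), had 51.8, 52.5 and 53.9 with Helicon 4 10 µM, 94.2, 93.8 and 93.3 with Helicon 4-neg 10 µM and 98.1, 95.2 and 93.8 with DMSO at 48 h. All Helicon 4 libraries lay below the others, which overlapped. TYMS fell with -0.64 (limma adjusted p = 9.7e-10, SE 0.05) at 24 h and -0.85 (limma adjusted p = 1.3e-14, SE 0.039) at 48 h against DMSO, and with -0.74 and -0.82 against Helicon 4-neg. ENOSF1, whose exons overlap TYMS on the opposite strand, also fell, with -0.23 and -0.52 against DMSO, and reads of the 2 cannot be told apart without strand. DUT, which makes the dUMP that TYMS uses and removes dUTP (ENSG00000128951, chromosome 15, 48331011 to 48343373), had 98.4, 105 and 102 with Helicon 4, 163, 171 and 170.1 with Helicon 4-neg and 172, 155 and 159 with DMSO at 48 h, with Helicon 4 below the overlapping rest. It fell with -0.56 and -0.66 against DMSO and with -0.74 and -0.72 against Helicon 4-neg (limma adjusted p = 4.2e-08, 9.5e-11, 5.9e-10 and 2.6e-11). DTYMK, the next kinase after TYMS, fell with -0.42 and -0.81, and TK1, the thymidine salvage kinase of dividing cells, with -0.21 and -0.58 (limma adjusted p = 5.2e-05, 1.9e-12, 0.00072 and 1.2e-10).

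The upstream windows of TYMS and DUT are shown because both hold the words TTTCCCGC or TTTGGCGC, forms of the site of E2F factors, read on either strand. In these RefSeq sequences of GRCh38 the capitals mark those words, and in DUT also TTCAAAG, the reverse strand of a TCF word named further on. TYMS is on the plus strand at chr18:657403-657652 and DUT on the plus strand at chr15:48331947-48332196, and the DUT window lies inside the bounds of the gene as GENCODE 29 gives them:
TYMS: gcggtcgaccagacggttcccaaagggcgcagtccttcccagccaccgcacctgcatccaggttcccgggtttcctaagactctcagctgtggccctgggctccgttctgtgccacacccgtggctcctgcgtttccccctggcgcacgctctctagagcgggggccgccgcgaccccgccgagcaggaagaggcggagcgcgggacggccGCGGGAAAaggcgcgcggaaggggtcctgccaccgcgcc
DUT: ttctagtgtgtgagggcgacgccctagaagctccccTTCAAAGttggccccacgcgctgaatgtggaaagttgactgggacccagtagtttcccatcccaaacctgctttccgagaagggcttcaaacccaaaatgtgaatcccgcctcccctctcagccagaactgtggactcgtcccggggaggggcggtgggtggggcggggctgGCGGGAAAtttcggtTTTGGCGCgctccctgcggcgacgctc

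The remaining genes of deoxynucleotide supply were less uniform. NME1, a nucleoside diphosphate kinase, had 98.2 ± 11 with Helicon 4 10 µM, 159 ± 6.1 with Helicon 4-neg 10 µM and 142 ± 7.2 with DMSO at 24 h (SD, n = 3 each), and fell with -0.53 at 24 h and -0.67 at 48 h against DMSO (limma adjusted p = 1.4e-06 and 9.8e-09). NME2, its near copy, had -0.14 and -0.07 against DMSO without passing. Against Helicon 4-neg NME2 fell with -0.36 at 24 h (limma adjusted p = 0.022), a call lost without Helicon 4 replicate 1 (-0.27) or 3 (-0.28) or Helicon 4-neg replicate 1 (-0.26), and had 0.10 at 48 h without passing. Both share exons with the readthrough NME1-NME2, so how reads were split among these is uncertain. DCTPP1, which hydrolyses dCTP and modified nucleotides, fell with -0.54 at 24 h (limma adjusted p = 1.3e-06) and with -0.15 at 48 h. The 48 h call was lost without Helicon 4 10 µM replicate 3 (-0.14), DMSO replicate 1 (-0.14) or DMSO replicate 2 (-0.15), while against Helicon 4-neg DCTPP1 fell with -0.29 (limma adjusted p = 0.00014). DCK, the salvage kinase of deoxycytidine, had -0.13 and -0.06 against DMSO without passing, and fell with -0.24 and -0.30 against Helicon 4-neg (limma adjusted p = 0.0027 and 0.00073). Exons of DCTPP1 overlap ZNF771 on the opposite strand and those of DCK overlap MOB1B on the same strand.

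The 3 folate genes fell at both later times with Helicon 4 10 µM, against DMSO and against Helicon 4-neg. MTHFD1, the trifunctional cytosolic enzyme that supplies the carbons for purines and thymidylate (ENSG00000100714, chromosome 14, 64388031 to 64463457), had 123, 125 and 122 with Helicon 4, 181, 188 and 186 with Helicon 4-neg and 187, 178 and 176 with DMSO at 48 h. MTHFD1L, the mitochondrial enzyme that releases formate (ENSG00000120254, chromosome 6, 150865549 to 151101887), had 51.9, 54.3 and 50.7 with Helicon 4, 73.6, 77.4 and 75.7 with Helicon 4-neg and 74.2, 70.6 and 65.3 with DMSO. SHMT1, the cytosolic enzyme that moves a carbon from serine onto folate (ENSG00000176974, chromosome 17, 18327860 to 18363563), had 66.4, 68.8 and 63.1 with Helicon 4, 92.2, 96.0 and 96.8 with Helicon 4-neg and 88.6, 90.2 and 88.1 with DMSO. For all 3 genes the Helicon 4 libraries lay below the 6 others. Of all genes tested, 28.7% fell against DMSO at 48 h, and the share separated in this way was not counted. MTHFD1 fell with -0.58 (limma adjusted p = 4.9e-11, SE 0.037) at 24 h and -0.54 (limma adjusted p = 2.4e-10, SE 0.043) at 48 h against DMSO. MTHFD1L fell with -0.53 (limma adjusted p = 1.9e-09, SE 0.043) and -0.41 (limma adjusted p = 2.8e-07, SE 0.051), and SHMT1 with -0.27 (limma adjusted p = 2.9e-06, SE 0.037) and -0.42 (limma adjusted p = 6.5e-09, SE 0.041). Against Helicon 4-neg at 24 and 48 h the changes were -0.50 and -0.58 for MTHFD1, -0.57 and -0.52 for MTHFD1L, and -0.35 and -0.52 for SHMT1, and each had a limma adjusted p of 8.1e-09 or less. MTHFD1 shares exonic sequence with ZBTB25 and SHMT1 with SMCR8, on the opposite strand in both cases.

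Windows upstream of MTHFD1 and MTHFD1L are shown as the folate genes with an E-box, in capitals. Both are RefSeq sequences of GRCh38 on the plus strand, at chr14:64388103-64388352 and chr6:150866236-150866485, and both start sites lie inside the bounds that GENCODE 29 gives the genes:
MTHFD1: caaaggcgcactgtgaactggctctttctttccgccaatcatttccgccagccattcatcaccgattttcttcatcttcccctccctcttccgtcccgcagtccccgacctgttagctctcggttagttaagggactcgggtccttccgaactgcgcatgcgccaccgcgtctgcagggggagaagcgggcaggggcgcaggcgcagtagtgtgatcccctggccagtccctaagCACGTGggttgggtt
MTHFD1L: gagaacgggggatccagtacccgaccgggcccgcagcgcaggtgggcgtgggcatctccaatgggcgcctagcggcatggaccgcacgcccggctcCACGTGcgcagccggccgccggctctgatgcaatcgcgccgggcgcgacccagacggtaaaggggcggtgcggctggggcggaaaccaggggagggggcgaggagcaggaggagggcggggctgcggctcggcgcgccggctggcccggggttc

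Over the 33 genes with a RefSeq promoter entry (250 bases before to 50 after the start site), 9 held CACGTG at 1 or more of their listed start sites, which is 27.3%, against 12.4% of the 11198 genes of the table counted in the same way, and 7.26% of all 35116 single promoter windows. They were PPAT, PAICS, ATIC, DHODH, DCK, DCTPP1, NME1, MTHFD1 and MTHFD1L, and PPAT and PAICS share 1 match, which for PAICS lies after a start site. The words TTTCCCGC or TTTGGCGC, searched on both strands, occurred in 5 genes (PRPS2, GART, TYMS, DCK and DUT), 15.2%, against 4.56% of the genes of the table and 2.27% of all windows. The TCF words CTTTGAT or CTTTGAA occurred in 2 (UMPS and DUT), 6.06%, against 6.17% and 6.86%. ADSL, IMPDH2 and RRM2B had no entry. These are matches of letters and say nothing of binding.

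Both genes of purine salvage fell. HPRT1, which recycles hypoxanthine and guanine (ENSG00000165704, chromosome X, 134460153 to 134520513), had 145, 145 and 164 with Helicon 4 10 µM, 218, 235 and 237 with Helicon 4-neg 10 µM and 244, 262 and 259 with DMSO at 48 h, without overlap between any groups. It fell with -0.40 (limma adjusted p = 9.9e-06, SE 0.06) at 24 h and -0.75 (limma adjusted p = 2.7e-10, SE 0.06) at 48 h against DMSO, and with -0.51 and -0.60 against Helicon 4-neg. APRT, which recycles adenine (ENSG00000198931, chromosome 16, 88809339 to 88811944), had 200.3, 209 and 208 with Helicon 4, 251, 258 and 258 with Helicon 4-neg and 302, 322 and 328 with DMSO, again in 3 separate groups. It fell with -0.62 (limma adjusted p = 3.1e-09, SE 0.058) against DMSO and -0.31 (limma adjusted p = 8e-05, SE 0.058) against Helicon 4-neg, and Helicon 4-neg itself lay below DMSO with -0.31 (limma adjusted p = 0.0015, SE 0.058). At 24 h APRT fell with -0.17 against DMSO (limma adjusted p = 0.008), a call lost without DMSO replicate 2 (-0.14) and after median centring (-0.12).

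Levels in DMSO moved between 24 and 48 h for several of these genes, and the fold changes at 48 h are read against that moving level. APRT averaged 209 ± 5.4, 180.4 ± 8.9 and 206 ± 4.7 with Helicon 4 10 µM at 6, 24 and 48 h, and 199.9 ± 7.6, 203 ± 9.4 and 318 ± 13 in DMSO. RRM2B averaged 34.9 ± 0.98, 34.9 ± 3.5 and 29.2 ± 0.93 with Helicon 4 10 µM and 29.2 ± 2.1, 29.8 ± 1.3 and 18.8 ± 0.7 in DMSO. For GART the DMSO means were 181 ± 1.3, 179 ± 5.5 and 128 ± 5, and for CTPS2 they were 74.5 ± 2.1, 78.0 ± 0.92 and 54.9 ± 2.5 (SD, n = 3 each). DMSO thus had its highest APRT and lowest RRM2B, GART and CTPS2 at 48 h, while RRM2 in DMSO had 234 ± 3.8, 250.4 ± 4 and 227 ± 5.2. Differences of DMSO between times were not tested.

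Helicon 4-neg changed few of the genes at 6 and 24 h and more at 48 h. Against DMSO at 24 h, 1 µM gave 0 calls, with 2 genes at an unadjusted limma p below 0.05 and 0 calls by edgeR (all genes 0% lower and 0% higher). The 3 µM dose lowered 1 and raised 0 (all genes 1.93% and 0.431%), and 10 µM lowered 1 and raised 3 (all genes 6.16% and 5.55%). The gene lowered at both doses was PAICS, with -0.24 and -0.19. DUT, TK1 and IMPDH2 rose at 10 µM, with 0.18, 0.15 and 0.14, and the calls of DUT (0.15 to 0.20) and TK1 (0.13 to 0.17) were lost without any 1 of the 6 libraries, that of IMPDH2 without Helicon 4-neg replicate 1 (0.14) or 2 (0.13) or DMSO replicate 1 (0.13). At 48 h, 1 µM lowered 3 genes and raised 15 (all genes 10.3% and 14%), and 3 µM lowered 5 and raised 13 (all genes 12.5% and 15.8%). At 10 µM 5 fell and 6 rose (all genes 8.55% and 10.4%). The 1 µM counts rested partly on Helicon 4-neg 1 µM replicate 1, without which 9 genes in place of 18 were called, and those at 3 and 10 µM on DMSO replicate 3, without which 10 in place of 18 and 3 in place of 11 were called.

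GART, DCK, CTPS1, CTPS2, RRM1 and RRM2B rose and PAICS, NME1 and APRT fell against DMSO at each dose of Helicon 4-neg at 48 h, some of them at 10 µM not without single libraries, as given with each gene. All doses were set against the same DMSO libraries, so the calls at different doses are not independent. The share of all genes called at every dose was not counted. GART had log2 fold changes of 0.42, 0.40 and 0.29 at 1, 3 and 10 µM, and NME1 of -0.20, -0.36 and -0.30. At 10 µM the rise of DCK (0.23) was lost without Helicon 4-neg replicate 2 (0.23) or 3 (0.23) or DMSO replicate 2 (0.19) or 3 (0.23), and that of RRM1 (0.16) without Helicon 4-neg replicate 2 (0.15) or DMSO replicate 2 (0.14) or 3 (0.14). For PAICS, NME1 and APRT the sign with Helicon 4-neg was that of Helicon 4, and for CTPS2 and RRM2B as well, with the smaller size in each case at 10 µM. The test of Helicon 4 against Helicon 4-neg at 10 µM passed for each of these 5 genes at 48 h, that of CTPS2 not without Helicon 4-neg replicate 1 (0.16), and NME1 had -0.37 (limma adjusted p = 5e-05). CTPS1 and RRM1 fell with Helicon 4 10 µM against DMSO at 48 h, where they rose with Helicon 4-neg, while the Helicon 4 changes of GART (-0.04) and DCK (-0.06) did not pass.

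Levels followed the dose of Helicon 4 in most genes at 24 h. Over 1, 3 and 10 µM, the slope of the log2 level per 10-fold dose was below zero in 29 genes and above it in 0 at 24 h (all genes 20.2% and 15.7%), and below zero in 21 and above it in 0 at 48 h (all genes 15.1% and 16.2%). RRM2 had 240.2, 233 and 235 at 1 µM, 162, 169.8 and 179.9 at 3 µM and 127, 147 and 144 at 10 µM at 24 h, with a slope of -0.76 (limma adjusted p = 9.4e-11). At 48 h its libraries had 167, 163 and 158 at 1 µM, 119, 121 and 117 at 3 µM and 103, 106 and 108 at 10 µM, a slope of -0.61 (limma adjusted p = 1.3e-11), and no dose overlapped another. CTPS1 had a slope of -0.53 at 24 h (limma adjusted p = 3.9e-09) and -0.12 at 48 h, which did not pass. Its 48 h levels were 78.7, 74.9 and 76.4 at 1 µM, 73.2, 74.5 and 70.6 at 3 µM and 70.6, 71.8 and 68.3 at 10 µM, so the 1 µM group already lay below all DMSO libraries. CAD at 48 h was lowest at 3 µM, where it had 58.9 ± 4.4, against 71.8 ± 1.9 at 1 µM and 73.7 ± 3.3 at 10 µM (SD, n = 3 each), and doses were not tested against each other singly.

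**Figure D4:**
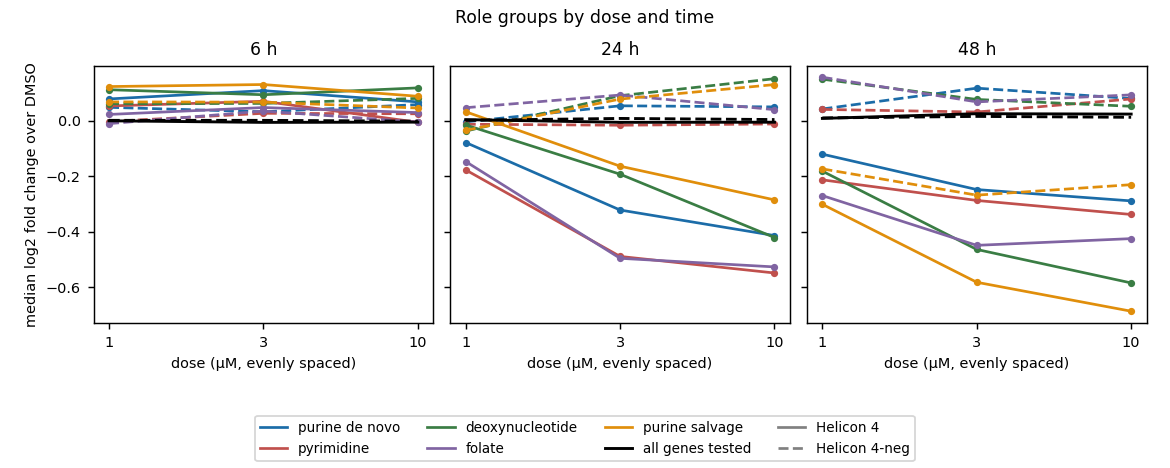
Median log2 fold change over DMSO of each role group (colours) and of all genes tested (black) by dose in µM, at 6, 24 and 48 h (panels), with Helicon 4 as solid and Helicon 4-neg as dashed lines. At 24 h with Helicon 4 10 µM the medians are -0.41 for purine synthesis, -0.55 for the pyrimidine genes, -0.42 for deoxynucleotide supply, -0.53 for folate and -0.29 for purine salvage.

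At 6 h most changes were small and upward. Against DMSO, Helicon 4 raised 8 genes and lowered 1 at 1 µM (all genes 5.61% and 7.07%), 13 and 0 at 3 µM (4.65% and 4.52%), and 10 and 1 at 10 µM (5.32% and 8.4%). Without DMSO replicate 2 these counts came to 0 in place of 9 at 1 µM and 4 in place of 11 at 10 µM. At 3 µM the lowest count was 5 in place of 13, without Helicon 4 3 µM replicate 2. RRM2 had 278, 283 and 287 with Helicon 4 10 µM, 241, 253 and 242 with Helicon 4-neg 10 µM and 238, 230.4 and 232 with DMSO, and the 3 groups did not overlap. It rose with 0.27 (limma adjusted p = 9.2e-07, SE 0.031) against DMSO and 0.20 (limma adjusted p = 9.3e-05, SE 0.031) against Helicon 4-neg at 6 h, the sign opposite to that of the later times. MTHFD1L had 114, 108 and 111 with Helicon 4, 105, 105 and 102 with Helicon 4-neg and 93.2, 102 and 95.5 with DMSO, and rose with 0.20 (limma adjusted p = 0.0018, SE 0.041) against DMSO. RRM2B rose with 0.25 (limma adjusted p = 0.002, SE 0.053) against DMSO. Against Helicon 4-neg the changes were 0.09 for MTHFD1L and 0.16 for RRM2B, which did not pass.

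CAD was the gene that fell at 6 h against DMSO. Its libraries had 123, 95.7 and 131 with Helicon 4 10 µM, 153, 141 and 138 with Helicon 4-neg 10 µM and 130.5, 169.7 and 127 with DMSO, and replicate 2 was the lowest of Helicon 4 and the highest of DMSO. The change was -0.29 (limma adjusted p = 0.044, SE 0.094) against DMSO and -0.31 (limma adjusted p = 0.04, SE 0.094) against Helicon 4-neg. Both calls rested on single libraries: against DMSO the value was -0.15 without Helicon 4 replicate 2 and -0.16 without DMSO replicate 2, and against Helicon 4-neg it was -0.18 without Helicon 4 replicate 2, and each of these missed the threshold. The remaining libraries whose omission ended the second call were Helicon 4 replicate 1 (-0.35) and Helicon 4-neg replicates 1 (-0.27), 2 (-0.33) and 3 (-0.34). With all libraries, the call against DMSO was also lost with no filter (adjusted p = 0.0525), median centring (0.0554), the replicate block (0.063), a robust prior (0.123) and a joint fit of all times (0.0569). The call against Helicon 4-neg was lost with centring (0.0502), the block (0.0608), the robust prior (0.132) and edgeR with TMM (0.0554) or DESeq2 size factors (0.0536).

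Between the compounds at 6 h, 1 µM and 3 µM gave 0 calls each, with 9 genes at each dose at an unadjusted limma p below 0.05 and 0 calls by edgeR (all genes 0.00766% higher and 0.0536% lower at 1 µM, 0.475% and 1.16% at 3 µM). At 10 µM 2 genes, RRM2 and DCK, were higher and 2, CAD and PPAT (-0.14), lower with Helicon 4 (all genes 2.72% and 5.71%). The call of DCK (0.15) was lost without any 1 of the 6 libraries (0.14 to 0.17). With Helicon 4-neg against DMSO at 6 h, 1 µM gave 0 calls, with 6 genes at an unadjusted limma p below 0.05 and 0 by edgeR (all genes 0.00766% higher and 0.023% lower). The 3 µM dose raised 3 genes, PPAT, PFAS and ATIC, and lowered 0 (all genes 0.781% and 0.965%). None of the 3 was called without Helicon 4-neg replicate 1 or 3 or DMSO replicate 3, and 1 gene was called without DMSO replicate 1 or 2. At 6 h 10 µM raised 1, PPAT at 0.16 (all genes 0.146% higher and 0.115% lower). The call of PPAT at 10 µM was lost without any Helicon 4-neg library (0.15 to 0.16) and without DMSO replicate 2 (0.13) or 3 (0.15). The slope over Helicon 4 doses at 6 h was above zero in 3 genes and below it in 1 (all genes 3.45% and 5.24%).

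The change from 6 to 24 h was itself tested. The fold change of Helicon 4 10 µM over DMSO was lower at 24 h than at 6 h in 30 of 36 genes and higher in 0 (all genes 19.6% and 19%), with a median difference of -0.50 (0.01 over all genes). From 24 to 48 h 11 genes went lower and 9 higher (all genes 14.7% and 19.6%). RRM2, TYMS, DTYMK, TK1, HPRT1 and APRT were among those that went lower, DTYMK with a difference of -0.39 and TK1 with -0.38 (limma adjusted p = 0.00018 and 1.2e-05). GART, DCTPP1, CTPS1, PPAT, PRPS1 and IMPDH1, which had fallen at 24 h, came nearer to DMSO, DCTPP1 with a difference of 0.39 (limma adjusted p = 0.00034). The DMSO means of these genes were themselves lower at 48 h than at 24 h. They went from 179 to 128 for GART, 265 to 212 for DCTPP1 and 127.6 to 89.0 for CTPS1. For PPAT they went from 209 to 164, for PRPS1 from 352 to 288 and for IMPDH1 from 95.6 to 87.1. The part of that movement in the differences was not tested. RRM2B and CTPS2 went further above DMSO, and ADSS, which had not passed at 24 h, lay above it at 48 h.

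Genes around these pathways were read from lists of related enzymes. Of 16 other genes of the folate cycle and serine synthesis, 15 were tested at 24 h and 10 fell and 1 rose with Helicon 4 10 µM against DMSO (median -0.17, all genes 27.6% and 25.1%), and 12 fell and 2 rose at 48 h (median -0.30, all genes 28.7% and 31.1%). MTHFD2, the mitochondrial dehydrogenase before MTHFD1L, fell with -0.46 at 24 h and -0.30 at 48 h, and SLC25A32, the mitochondrial folate carrier, with -0.70 and -0.43. SHMT2, the mitochondrial partner of SHMT1, had 0.02 at 24 h without passing and fell with -0.19 at 48 h. MTR, the methionine synthase, fell with -0.77 and -0.69. At 6 h the serine genes PSAT1 (0.28) and PSPH (0.18) and MTHFD2 (0.20) were higher, the 3 genes that passed among 14 tested (all genes 5.32% higher and 8.4% lower).

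Of 21 other salvage genes and nucleotide kinases, 20 were tested at 24 h and 7 fell and 5 rose against DMSO (all genes 27.6% and 25.1%), and at 48 h 9 fell and 2 rose (all genes 28.7% and 31.1%). The medians were -0.10 and -0.06, and at 24 h the shares lay near those of all genes. AK6 fell with -0.44 and -0.75, UCK1, the relative of UCK2, with -0.37 and -0.47, and SLC29A2, a nucleoside transporter, with -0.61 and -0.74. TK2, the mitochondrial thymidine kinase, rose with 0.53 and 0.55 at the times when TK1 fell, and DCTD, which makes dUMP from dCMP, rose with 0.29 and 0.30. Against Helicon 4-neg at 48 h TK2 had 0.41 and DCTD 0.14, and both passed.

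Most listed genes of DNA replication were also lower with Helicon 4 10 µM at 24 and 48 h. The list held 15 genes of S phase (MCM2 to MCM7, PCNA, GINS1, GINS2, CDC45, CDC6, CDT1, FEN1, POLA1 and UNG). With Helicon 4 10 µM against DMSO, 1 fell and 3 rose at 6 h (all genes 8.4% and 5.32%). At 24 h 15 fell (all genes 27.6%), and at 48 h 14 fell (all genes 28.7%). The medians were -0.0021, -0.72 and -0.84 at 6, 24 and 48 h. With Helicon 4-neg 10 µM 3 fell and 0 rose at 24 h (all genes 6.16% and 5.55%). At 48 h Helicon 4-neg lowered 2 and raised 1 (all genes 8.55% and 10.4%), near the shares of all genes. Its medians were 0.02 and 0.01. The part of the S phase genes in the changes of the nucleotide genes was not tested. AXIN2, a direct Wnt target, had 62.4, 64.5 and 70.0 with Helicon 4 10 µM, 193, 173 and 179 with Helicon 4-neg 10 µM and 184, 197 and 183 with DMSO at 6 h, a change of -1.50 against DMSO at a time when the median of the 36 genes was 0.07. MYC had 3173 ± 117, 3245 ± 227 and 3279.6 ± 88 with Helicon 4 10 µM at 6, 24 and 48 h, and 3822 ± 213, 3692 ± 115 and 2637 ± 159 with DMSO (SD, n = 3 each). Its log2 fold change was -0.27, -0.19 and 0.32 (limma adjusted p = 0.00011, 0.0049 and 1.2e-05). With Helicon 4-neg 10 µM MYC had 3823 ± 80, 3599 ± 76 and 2881 ± 40 at these times, and at 48 h its log2 fold change of 0.13 against DMSO did not pass (limma adjusted p = 0.079). Helicon 4 1 µM had 2506 ± 127 at 48 h. MYC was thus lower with Helicon 4 10 µM at 6 and 24 h and higher at 48 h, with the mean of DMSO lower at 48 h than before.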

How the data were processed

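RNA of 63 COLO320DM libraries was measured by poly(A) sequencing, in 21 groups of 3. Per the submitters' processing notes, reads were handled with Trimmomatic 0.39, STAR 2.7.7a on GRCh38, featureCounts of Subread 2.4.2 and edgeR 4.0.2; the annotation, the use of strand in counting and the filter on genes are not given in the sources used here. The deposited table holds a signal per gene, a CPM scaled by the authors, in which 100% of values were whole multiples of 1 read (tolerance 0.01 reads), so library depth was recovered (16628595 to 32860333 reads). No table column was left unused. Depth limits the precision of low genes, and intervals reflect the spread between libraries.

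The 36 members and the lists of related genes were chosen with earlier results of these data known. Of the gene identifiers in the table, 13952 were found in GENCODE 29, from which coordinates (GRCh38) and exon overlaps were taken. The lengths behind the levels per kilobase were those deposited with the values. Levels were tested as log2(value + 1) with limma 3.58.1 in R 4.3.3, in 1 fit per time over 21 libraries with a trended prior, for genes with at least 0.5 in at least 3 libraries. Tests were two-sided, with Benjamini-Hochberg adjustment over all genes tested and a threshold of 0.05; fold changes understate those of low genes. Differences between times came from 1 fit of all 63 libraries. The adjustment was made within each comparison. Genes described in full were the 3 per role with the largest mean log2 fold change, in absolute size, of Helicon 4 over Helicon 4-neg at 10 µM at 24 and 48 h, all folate and salvage genes, and any gene called at 48 h against the direction of most of its role; others were chosen after their values were seen.

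Replicate numbers did not pair the libraries: residuals of libraries with the same number correlated by -0.0241, 0.0392 and -0.0348 on average at 6, 24 and 48 h. None of the 63 pairs of replicates was identical, and chi-square per gene between replicates was 1.94 to 29.5. Alternatives were a pseudocount of 0.1, no filter, median centring over genes with at least 5, a replicate block, a robust prior, 1 fit of all libraries, edgeR 4.0.16 on the recovered reads with TMM or DESeq2 1.42.0 size factors, and leaving out each library. Some genes of the related lists are counted but not reported here by name.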

Additional observations from a re-analysis of the deposited data

Results flagged for a closer look

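The effect of Helicon 4 10 µM over DMSO differed between times in each of the 17 genes chosen for full description, at 1 step or at both, by limma's test of the difference itself over all 63 libraries. Most of these genes were chosen by their Helicon 4 changes at 24 and 48 h in the same libraries, so the count is no independent evidence. Of all genes tested, 19.6% went lower and 19% higher from 6 to 24 h. From 24 to 48 h the shares were 14.7% and 19.6%. Other genes of the 36 that also differed are given above. Each value here is the later log2 fold change minus the earlier one.

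From 6 to 24 h the enzymes of purine synthesis went down, PAICS by a difference of -0.83 (limma adjusted p = 1.7e-19), PFAS of -0.82 (5.4e-09) and PRPS2 of -0.57 (3.9e-10). Among the pyrimidine genes the differences were -0.83 for CTPS1 (5.3e-14), -0.52 for CAD (0.0029) and -0.49 for UCK2 (9.3e-14). RRM2 had -1.12 (1.3e-23), the lowest of those named for this step, and its fold change had been above zero at 6 h. TYMS had -0.76 (4.3e-16) and DUT -0.62 (1.8e-09). The folate genes had -0.72 for MTHFD1L (4.2e-14), -0.60 for MTHFD1 (6e-14) and -0.30 for SHMT1 (1.3e-06), and the salvage genes -0.51 for HPRT1 (1.6e-06) and -0.23 for APRT (0.0097).

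From 24 to 48 h the genes separated. ADSS went up with a difference of 0.33 (limma adjusted p = 0.00069), RRM2B with 0.39 (0.0029), CTPS2 with 0.21 (0.028) and CTPS1, which remained below DMSO, with 0.37 (4.3e-05). PRPS2 went down with -0.21 (0.0099), RRM2 with -0.25 (0.00019), TYMS with -0.20 (0.0037), SHMT1 with -0.15 (0.011), HPRT1 with -0.35 (0.00099) and APRT with -0.45 (3.3e-06). DMSO levels also moved between these times. The DMSO means went from 203 to 318 for APRT, 194 to 255 for HPRT1 and 29.8 to 18.8 for RRM2B. For CTPS1 they went from 127.6 to 89.0, for CTPS2 from 78.0 to 54.9 and for ADSS from 51.4 to 45.7. The means were 250 and 227 for RRM2, 93.9 and 89.0 for SHMT1, 102.7 and 104.4 for PRPS2 and 95.6 and 95.7 for TYMS. The part of that movement in the differences was not tested.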

How the results depend on the processing

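With Helicon 4 at 24 and 48 h, every count of called members stayed within 1.5 times its value in every alternative and without any 1 library, as did the slopes at those times and both differences between times; no result reversed. At 6 h and with Helicon 4-neg, counts depended on the setting, and the cause was not tested. Fitting all 63 libraries together gave 2 in place of 9 for Helicon 4 1 µM against DMSO at 6 h, 7 in place of 13 at 3 µM and 6 in place of 11 at 10 µM. For Helicon 4-neg 3 µM at 6 h a robust prior gave 1 in place of 3, and for 10 µM at 6 h centring, the replicate block, edgeR with TMM and the joint fit gave 0 in place of 1. For Helicon 4 against Helicon 4-neg 10 µM at 6 h the replicate block gave 2 in place of 4. For Helicon 4-neg against DMSO at 24 h, edgeR with TMM and the joint fit gave 2 in place of 1 at 3 µM, and the joint fit 7 in place of 4 at 10 µM.

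Leaving out 1 library at a time at 6 h gave 0 (without DMSO replicate 2) to 15 for Helicon 4 1 µM against DMSO, 5 to 13 at 3 µM and 4 (without DMSO replicate 2) to 12 at 10 µM, 0 to 3 for Helicon 4-neg 3 µM, 0 to 1 at 10 µM, 2 to 3 between the compounds at 10 µM and 2 to 4 for the slope. It gave 1 to 3 for Helicon 4-neg 10 µM at 24 h, and at 48 h 9 to 18 at 1 µM, 10 to 19 at 3 µM and 3 to 11 at 10 µM. Of 153 results for named genes, the joint fit left 148 on the same side of the threshold, centring 147, the block 150, the robust prior 151, edgeR 151 (TMM) and 152 (DESeq2 size factors), no filter 152 and a pseudocount of 0.1 all 153. Leaving out 1 library left 859 of 918 on the same side, weakened 55 and strengthened 4. The 918 include results not called with all libraries, which could not count as weakened. The replicate block ended the calls of CAD at 6 h against both DMSO and Helicon 4-neg and of ADSS against Helicon 4-neg at 48 h, and changed no other named call; the labels' numbers are not stated to pair libraries.

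On the recovered reads, edgeR with TMM called 3343 genes higher and 3594 lower for Helicon 4 10 µM against DMSO at 24 h, where limma called 3323 and 3645.

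Centring moved the median of all genes by at most 0.07 but the balance of calls by over 10 percentage points. At 6 h, Helicon 4 1 µM against DMSO had 983 higher and 814 lower in place of 732 and 923, 10 µM had 1177 and 863 in place of 694 and 1097, and 10 µM against Helicon 4-neg had 522 and 569 in place of 355 and 745. At 24 h, Helicon 4 1 µM against DMSO had 1597 and 1064 in place of 1135 and 1366, against Helicon 4-neg 2253 and 1380 in place of 1509 and 1863, and 3 µM against DMSO 3503 and 2536 in place of 2744 and 3226. Helicon 4-neg against DMSO had 86 and 192 (edgeR with TMM 111 and 250) in place of 57 and 255 at 3 µM, and 1019 and 649 in place of 733 and 814 at 10 µM, at 24 h. At 48 h it had 1625 and 2178 in place of 2133 and 1682 at 3 µM, and 1052 and 1530 in place of 1403 and 1152 at 10 µM. From 24 to 48 h the differences had 2008 and 2648 in place of 2700 and 2020. The members' own splits after centring at 6 h were 11 higher and 1 lower in place of 8 and 1 (1 µM against DMSO), 14 and 0 in place of 10 and 1 (10 µM), and 5 and 0 in place of 2 and 2 (10 µM against Helicon 4-neg). At 24 h they were 4 and 9 in place of 2 and 10 for Helicon 4 1 µM against DMSO, 6 and 9 in place of 3 and 10 against Helicon 4-neg, and 4 and 23 in place of 3 and 26 for 3 µM against DMSO. At 48 h they were 9 and 7 in place of 13 and 5 for Helicon 4-neg 3 µM and 6 and 6 in place of 6 and 5 for 10 µM, and for the difference from 24 to 48 h 6 and 14 in place of 9 and 11.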

Other observations

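Among enzymes that break nucleotides down or clean the pool, some genes fell and some rose. Of 18 such genes, 16 were tested at 48 h, where 9 fell and 4 rose with Helicon 4 10 µM against DMSO (limma, adjusted p below 0.05, median log2 fold change -0.26, all genes 28.7% and 31.1%), and at 24 h 5 fell and 2 rose (median 0.04, all genes 27.6% and 25.1%). The share that fell at 24 h lay near that of all genes. SAMHD1, which degrades deoxynucleotides, fell with -0.49 at 24 h and -0.28 at 48 h (limma adjusted p = 4.5e-09 and 0.00011), PNP, which splits purine nucleosides, with -0.44 and -0.33, and ITPA, which removes inosine triphosphate, with -0.35 and -0.42. DPYD, the first enzyme of pyrimidine breakdown, rose with 0.48 and 0.63, and GMPR2, which turns GMP back into IMP, with 0.37 and 0.38. NT5C2, a purine nucleotidase, and AMPD2, which deaminates AMP, had 0.13 and 0.06 at 24 h without passing and rose with 0.71 and 0.93 at 48 h (limma adjusted p = 9.3e-07 and 5.5e-08). Against Helicon 4-neg at 48 h 7 of these genes fell and 4 rose (all genes 27% and 26.7%), and the share that rose lay near that of all genes. The genes named here were chosen after their values were seen.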
